A study of Mus musculus with 15 samples.

Results

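Mt1 and Mt2, the metallothionein genes measured in these colons, and Mtf1, the gene of the transcription factor that senses zinc and drives them, are described here across 15 mouse colons. The 3 genes were chosen by symbol among 12897 genes counted in at least 1 of the 3 deposited tables, and all 3 members were found in every table. They were selected with their levels in these libraries already known, so their levels and fold changes are given as a description and without a test. The related genes Mt3 and Mt4 were not analysed here.

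RNA-seq was done on distal colons of 5 groups of 3 mice, all of strain C57BL/6 in the labels, with B6 mice named C57BL/6J in the study's methods. These were B6 (wildtype) mice at D26 of AOM/DSS treatment, Irf1-/- mutants at D26, untreated Irf1-/- mutants, and 2 separate sets of untreated B6 mice, called control set 1 and control set 2. On D1 treated mice were injected with 7 mg/kg of azoxymethane (AOM), a carcinogen that alkylates DNA. They then drank 2% dextran sodium sulfate (DSS), which injures the colonic epithelium, on D8 to D11. The study's tumor model used mice 8 to 10 weeks old, an age not repeated for the RNA-seq mice. The Irf1-/- mutants carry their mutation in the whole body, not in the colon alone, and control set 1 was tabulated with treated B6 mice while control set 2 was tabulated with untreated mutants. Whole tissue was sequenced, so more RNA per cell and more cells of a type cannot be told apart.

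Metallothioneins are small cysteine-rich proteins that bind zinc and copper ions, buffer free zinc in the cell and scavenge oxidants. When free zinc rises, Mtf1 protein binds metal response elements (MREs) in the promoters of Mt1, Mt2 and the zinc exporter gene Slc30a1 and raises their transcription. Glucocorticoids, interleukin-6 and oxidative stress also induce metallothioneins, and in the gut they are made in epithelial cells among others.

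The coding sequences of Mt1 and Mt2 are shown first because they let a reader judge whether reads of these close relatives could be confused. Both were taken from the first GENCODE M21 (GRCm38) transcript of each gene and are written 5′ to 3′ without the stop codon, with each cysteine codon in capitals.
Mt1: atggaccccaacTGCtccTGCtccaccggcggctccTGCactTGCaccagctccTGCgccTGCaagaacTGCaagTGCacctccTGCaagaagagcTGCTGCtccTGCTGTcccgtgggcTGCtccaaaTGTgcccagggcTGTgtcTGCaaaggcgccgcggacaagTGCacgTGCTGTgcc
Mt2: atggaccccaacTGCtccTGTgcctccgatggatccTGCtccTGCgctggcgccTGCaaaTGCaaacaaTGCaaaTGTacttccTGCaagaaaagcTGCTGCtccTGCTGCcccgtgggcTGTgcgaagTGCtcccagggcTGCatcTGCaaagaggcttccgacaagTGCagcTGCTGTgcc
Each holds 61 codons, and 20 of them (32.8%) encode cysteine, against 19 of 675 codons (2.81%) in Mtf1. All 20 cysteine codons stand at the same place in both genes. The coding sequences were identical at 145 of 183 bases (79.2%), and the longest run of bases shared by the whole transcripts was 20, shorter than the 50 bp reads. Mt1 and Mt2 are neighbours on mouse chromosome 8, on the same strand, with 6471 bases between their RefSeq starts.

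The bases in front of Mt1 and Mt2 are shown next because both genes rose and fell together across libraries. They are the 250 bases before the RefSeq start (GRCm38.p6, plus strand), with the core of each MRE in capitals. Mt1 covers chr8:94178839-94179088 and Mt2 covers chr8:94172368-94172617.
Mt1: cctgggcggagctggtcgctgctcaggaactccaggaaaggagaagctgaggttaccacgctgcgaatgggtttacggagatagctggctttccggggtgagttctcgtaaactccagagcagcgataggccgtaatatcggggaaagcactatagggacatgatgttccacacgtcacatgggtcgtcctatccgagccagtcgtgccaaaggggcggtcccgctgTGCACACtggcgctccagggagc
Mt2: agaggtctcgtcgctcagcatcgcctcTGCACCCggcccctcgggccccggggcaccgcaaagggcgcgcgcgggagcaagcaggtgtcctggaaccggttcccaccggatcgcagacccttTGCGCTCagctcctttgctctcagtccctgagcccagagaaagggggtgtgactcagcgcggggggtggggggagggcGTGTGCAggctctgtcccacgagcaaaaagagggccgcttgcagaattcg
The MRE core was searched as TGCACNC or TGCGCNC on both strands, in a window from 250 bases before to 50 bases after the start. With the start as position 0, Mt1 held 3 matches, at -23, 2 and 20, and Mt2 held 4, at -223, -128, -50 and 4. The matches of Mt2 at -50 and 4 were on the minus strand and the rest on the plus strand. Mtf1 held 0, and Slc30a1 held 2. Of all 32851 windows of this length, 25.7% held at least 1 match and 1.97% held 3 or more. The core of an interferon regulatory factor element, GAAANNGAA on both strands, was in 8.56% of all windows and had 0 matches in the windows of Mt1, Mt2 and Mtf1. GENCODE places the starts of Mt1 transcripts between -7 and 152 bases from the RefSeq start and those of Mt2 between 46 and 242, so these windows do not hold every base in front of a transcript.

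Libraries held 22266607 to 22869853 counted reads. Values below are CPM (a gene's reads per 1000000 counted reads of its library, scaled by TMM) unless reads are named. Irf1 itself had 1786 to 2769 reads in the 6 Irf1-/- libraries and 2882 to 5188 in the 9 B6 libraries, with no overlap. Group means were 94.7 and 111 CPM in mutants and 133 to 208 CPM in B6 mice, so reads were still counted on Irf1 in mice labelled as lacking it. These counts per gene do not show which part of Irf1 they cover. Xist, transcribed from the inactive X chromosome of females, had 134 and 573 reads in treated B6 replicates 2 and 1 and 263 in treated Irf1-/- replicate 1, against 7288 to 83932 in the other 12 libraries. The low libraries were all from treated mice, so a difference in sex between treated and untreated groups cannot be fully told apart from treatment. Treated B6 mice had more of them than treated mutants, so the same holds for genotype at D26. The log2 deviation of a library's genes rose by 0.14 to 0.29 per 10% GC content in the 3 treated B6 libraries, and its slope lay between -0.12 and 0.03 in the other 12. Values with a GC correction or log2 Xist counts as a covariate are given beside a log2 FC of a member or named pathway gene where they moved it by over 1.5 times.

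Mt1 was abundant in every colon, and its level per mouse was less even in untreated B6 mice than in mutants. Control set 1 had 102, 104 and 69.6 CPM. Control set 2 had 64.3, 31.1 and 110 CPM. Untreated Irf1-/- mutants had 102, 101 and 98.3 CPM, which lay within the range of untreated B6 mice. Treated B6 mice had 53.5, 43.0 and 55.5 CPM, below all of control set 1 but not below all of control set 2. Treated Irf1-/- mutants had 133, 107 and 125 CPM, and all except the 107 were above the other 12 libraries. That library, treated replicate 2, lay below 1 of them, the highest of control set 2.

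**Figure D1:**
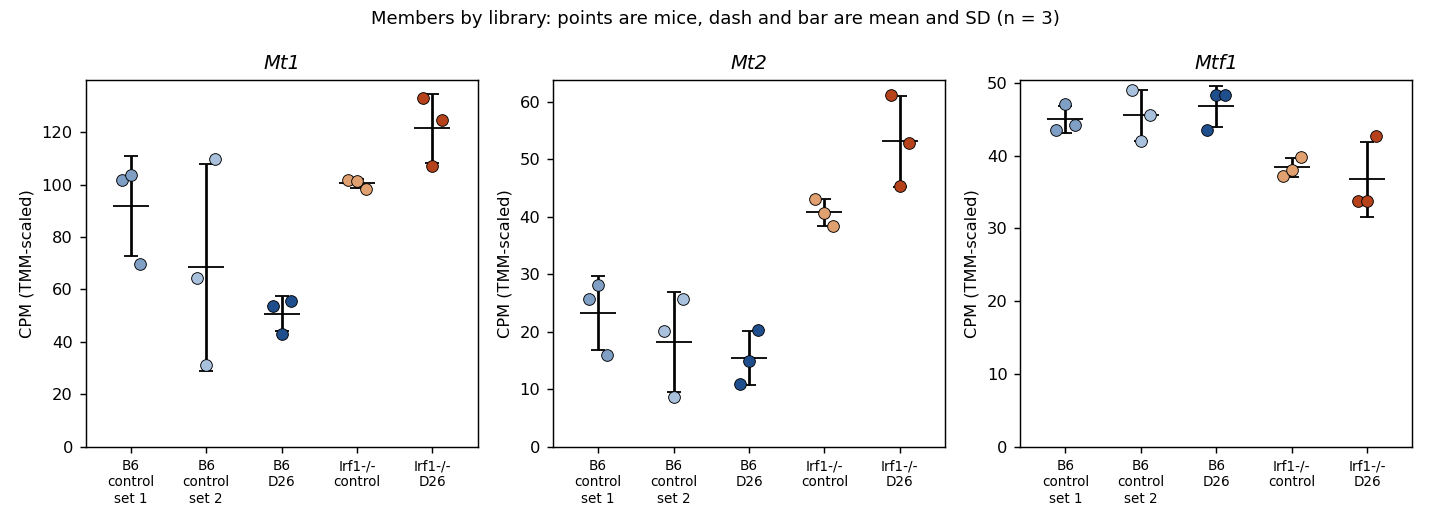
CPM of Mt1, Mt2 and Mtf1 (vertical axes, from 0) in each mouse (points) of the 5 groups, with the mean and SD of 3 mice as dash and bar. Mt2 of the 6 Irf1-/- libraries (38.3 to 61.2 CPM) lies above all 9 B6 libraries (8.66 to 28.2 CPM), whereas Mt1 of untreated mutants lies within the range of untreated B6 mice.

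Mt2 separated the genotypes. Control set 1 had 25.6, 28.2 and 15.9 CPM, control set 2 had 20.2, 8.66 and 25.7 CPM, and treated B6 mice had 10.9, 14.96 and 20.2 CPM. Untreated Irf1-/- mutants had 43.2, 40.7 and 38.3 CPM and treated ones had 61.2, 45.3 and 52.8 CPM. The lowest mutant library was therefore above the highest B6 library. Of 12370 genes, 0.162% had all Irf1-/- libraries above all B6 libraries, and 0.873% had them all below, shares given as background because Mt2 was chosen with this pattern known.

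Mtf1 itself showed the opposite order at a smaller size. Control set 1 had 43.6, 47.1 and 44.3 CPM, control set 2 had 49.0, 42.03 and 45.6 CPM, and treated B6 mice had 43.6, 48.4 and 48.4 CPM. Untreated mutants had 37.2, 38.1 and 39.8 CPM and treated mutants had 33.7, 33.8 and 42.7 CPM. The genotypes overlapped by 1 library on each side, since treated Irf1-/- replicate 3 (42.7 CPM) lay above replicate 2 of control set 2 (42.03 CPM). The highest library exceeded the lowest 1.45-fold for Mtf1, 4.28-fold for Mt1 and 7.06-fold for Mt2.

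The groups were ordered alike for Mt1 and Mt2 and the other way for Mtf1. For Mt1 the means were 122 ± 13.2 in treated mutants, 100 ± 1.85 in untreated mutants, 91.7 ± 19.1 in control set 1, 68.4 ± 39.6 in control set 2 and 50.7 ± 6.69 CPM in treated B6 mice (SD, n = 3 mice each). Only the gap between treated and untreated mutants exceeded the larger SD of the pair among neighbours in this order. For Mt2 they were 53.1 ± 7.97, 40.7 ± 2.40, 23.2 ± 6.49, 18.2 ± 8.70 and 15.4 ± 4.67 CPM in the same order of groups. Here the gap between untreated mutants and control set 1 also exceeded the larger SD, and the 3 B6 groups did not differ from their neighbours by that much. For Mtf1 treated B6 mice were highest at 46.8 ± 2.77 CPM, followed by control set 2 at 45.6 ± 3.49, control set 1 at 44.98 ± 1.86, untreated mutants at 38.4 ± 1.35 and treated mutants at 36.7 ± 5.17. The only gap beyond the larger SD lay between control set 1 and untreated mutants.

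Per kilobase of transcript, Mt1 stood far above the factor that drives it. In control set 1, Mt1 had 167 ± 34.8, Mt2 had 45.5 ± 12.7 and Mtf1 had 5.89 ± 0.24 CPM per kb (SD, n = 3). In treated mutants these levels were 221 ± 24.0, 104 ± 15.6 and 4.81 ± 0.68 CPM per kb. The lengths used were 549, 511 and 7631 bases for the first GENCODE transcript of Mt1, Mt2 and Mtf1.

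The balance between both metallothioneins also differed by genotype. Irf1-/- mutants had 42.5, 40.1 and 39.0 Mt2 reads per 100 Mt1 reads without treatment and 46.1, 42.3 and 42.3 at D26. The B6 libraries had 25.2, 27.2 and 22.8 in control set 1, 31.4, 27.9 and 23.4 in control set 2, and 20.4, 34.8 and 36.5 at D26. All 6 mutant libraries were thus above all 9 B6 libraries, and treated B6 mice were the most spread (30.6 ± 8.82, SD, n = 3). The nearest pair lay within counting error of each other. Mt2 made up 26.7% of the reads of both genes in treated B6 replicate 3 (exact 95% binomial interval 24.7% to 28.9%) and 28.1% in untreated Irf1-/- replicate 3 (26.5% to 29.7%), intervals that cover counting error only. Corrected for transcript length, the median was 29.2 Mt2 per 100 Mt1 in B6 libraries and 45.4 in mutants.

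**Figure D2:**
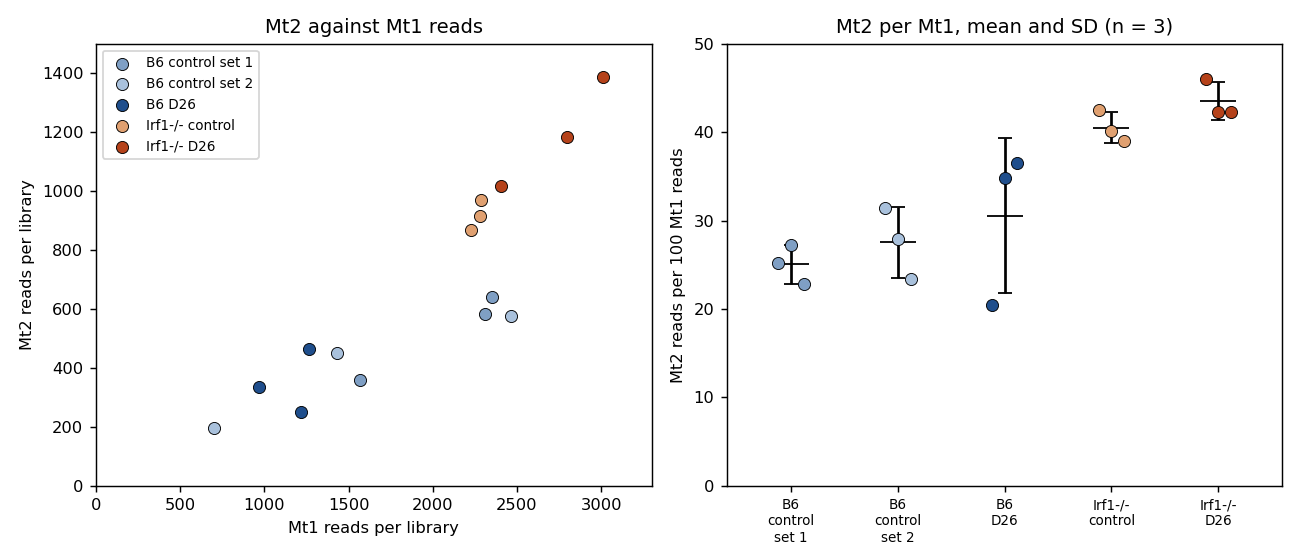
Left, Mt2 reads against Mt1 reads in each of the 15 libraries (both axes linear from 0). Right, Mt2 reads per 100 Mt1 reads by group, with mean and SD of 3 mice, where mutants sit between 39.0 and 46.1 and B6 mice between 20.4 and 36.5.

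At steady state, the comparison of untreated Irf1-/- mutants with control set 2 asks which genes differ before any treatment. Mt2 was 2.24-fold higher in mutants (log2 FC 1.16, standard error 0.28) and Mt1 1.47-fold higher (log2 FC 0.55, standard error 0.33). Mtf1 was lower, at a log2 FC of -0.25 (standard error 0.07). Mt2 and Mtf1 did not overlap between these groups, as was true of 15.5% of all genes, while Mt1 did. The size of the Mt1 difference hung on which controls were used. With control set 1 in their place, the log2 FC was 0.13 for Mt1, 0.81 for Mt2 and -0.23 for Mtf1. Without replicate 2 of control set 2, the library with the lowest Mt1 and Mt2, the log2 FC of Mt1 was 0.21, and without replicate 3 of that set it was 1.07.

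In B6 mice, both metallothioneins were lower at D26 than in control set 1. Mt1 was 1.80-fold lower (log2 FC -0.85, standard error 0.16) and the log2 FC of Mt2 was -0.58 (standard error 0.26). Mtf1 was near its untreated level, with a log2 FC of 0.06 (standard error 0.08). Only Mt1 was without overlap, as were 34.6% of all genes in this comparison. With control set 2 as controls, the log2 FC was -0.42 for Mt1 and -0.22 for Mt2. With a correction for GC content, whose slope set the treated B6 libraries apart, it was -0.93 for Mt1 and -0.71 for Mt2. Without treated B6 replicate 1 it was -0.39 for Mt2.

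In Irf1-/- mutants, both metallothioneins were higher at D26 than without treatment. Mt1 was 1.21-fold higher (log2 FC 0.28, standard error 0.08) and Mt2 1.31-fold higher (log2 FC 0.39, standard error 0.11). For both genes all 3 treated libraries were above all 3 untreated ones, as 24.8% of all genes were without overlap in either direction. Mtf1 had a log2 FC of -0.06 (standard error 0.10) and overlapped. With log2 Xist counts as a covariate, the log2 FC was 0.18 for Mt1, 0.24 for Mt2 and -0.0097 for Mtf1.

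For Mt1 and Mt2 the genotypes were farther apart at D26 than without treatment. Treated mutants had 2.37-fold more Mt1 than treated B6 mice (log2 FC 1.24, standard error 0.13) and 3.41-fold more Mt2 (log2 FC 1.77, standard error 0.21). Mtf1 was 1.29-fold lower (log2 FC -0.37, standard error 0.11). All 3 genes were without overlap, against 27.7% of all genes. The response of mutants minus that of B6 mice was 1.13 for Mt1 (standard error 0.20), 0.98 for Mt2 (standard error 0.30) and -0.12 for Mtf1 (standard error 0.13) on the log2 scale. Treated B6 mice were below control set 1 and treated mutants above untreated ones, both without overlap, for Mt1 and for 0.582% of all genes. These comparisons share samples, so their values are not independent of one another.

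**Figure D3:**
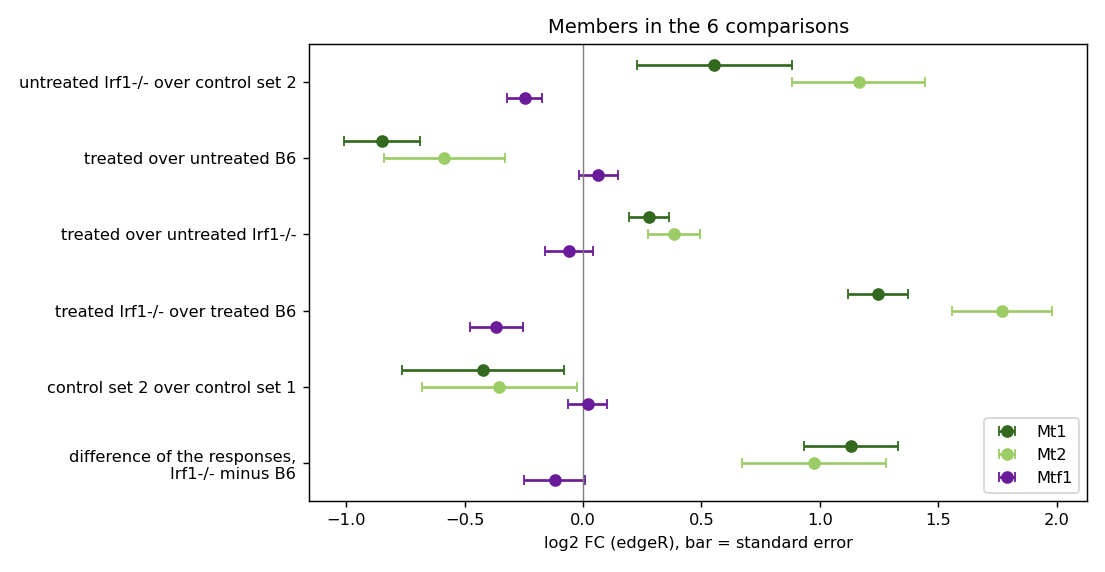
Log2 FC (horizontal axis) of Mt1, Mt2 and Mtf1 in the 6 comparisons, with the standard error from edgeR as the bar. Mt1 and Mt2 lie below 0 for treated over untreated B6 and above 0 for treated over untreated Irf1-/-, and Mtf1 is lower in mutants than in B6 mice without treatment and at D26.

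Both sets of untreated B6 mice share genotype and treatment, and their metallothionein levels overlapped. Control set 2 over control set 1 had a log2 FC of -0.42 for Mt1 (standard error 0.34) and -0.35 for Mt2 (standard error 0.33), with overlapping libraries, while 21.4% of all genes did not overlap between the sets. Without replicate 2 of control set 2 these values were -0.069 for Mt1 and -0.012 for Mt2, and without replicate 3 of that set they were -0.94 and -0.69. Leaving out replicate 2 or replicate 3 of control set 1 gave -0.19 or -0.56 for Mt2. With log2 Xist as a covariate the log2 FC was -0.18 for Mt1 and -0.05 for Mt2. For Mtf1 it was 0.02 (standard error 0.08), 0.04 with the GC correction and 0.06 with log2 Xist. The largest spread inside a group was that of Mt1 in control set 2, where the highest mouse had 3.54-fold the level of the lowest. Mt2 differed 2.97-fold among the same mice. In the replicate with the lowest metallothioneins, the summed level of 11 colon epithelium markers was also the lowest of the 15 libraries, at 5927 CPM against 7577 and 8047 CPM in the other mice of its set. Whether this bears on its metallothioneins was not tested.

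Markers of cell types were compared because a whole colon mixes epithelium, muscle and leukocytes. The labelled tissue showed its defining markers, since all 11 epithelial and all 6 smooth muscle markers were counted in every table. Summed epithelial markers ranged from 8159 to 8920 CPM in treated mutants and from 7468 to 11505 CPM in treated B6 mice. They ranged from 8221 to 8632 CPM in untreated mutants and from 5927 to 8047 CPM in untreated B6 mice. Such sums weigh abundant markers most. Taken singly, 1 of 11 epithelial markers had a positive log2 FC in treated mutants over treated B6 mice (median -0.22). In untreated mutants over control set 2 these were 4 of 11 (median -0.0047). Summed over 8 of 9 leukocyte markers, levels were 474 to 483 CPM in treated and 281 to 361 CPM in untreated mutants, without overlap. They were 393 to 561 CPM in treated B6 mice, 281 to 448 CPM in control set 1 and 248 to 331 CPM in control set 2, so treated B6 mice overlapped set 1 and lay above all of set 2. Smooth muscle (6 markers, 5879 to 7587 CPM) overlapped between all groups. Fibroblast markers (4) summed to 1069 to 1342 CPM in treated and 879 to 1032 CPM in untreated mutants, without overlap. They summed to 904 to 1157 CPM in treated B6 mice and 843 to 1081 CPM in untreated ones. Endothelial markers (3) summed to 105 to 125 CPM in treated and 88.1 to 93.6 CPM in untreated mutants, and to 104 to 118 and 84.6 to 101 CPM in B6 mice, in both genotypes without overlap. Of the adipocyte markers 1 of 7, and of the enteric neuron and glia markers 2 of 7, were counted in all tables, at 15.7 to 30.3 and 12.4 to 27.8 CPM in sum. The mean leukocyte sum was higher in treated than in untreated mice of both genotypes, at 478 ± 4.20 against 323 ± 40.2 CPM in mutants and 468 ± 85.4 against 372 ± 84.4 (control set 1) and 288 ± 41.5 CPM (control set 2) in B6 mice (SD, n = 3). The part of these cells in the metallothionein levels was not tested.

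Mt1 and Mt2 followed each other from mouse to mouse. Over the 15 libraries, Pearson's r of their log2 CPM was 0.91 and Spearman's rho 0.86, and r was 0.87 without the 2 libraries farthest from the median of Mt1. With the mean of each group taken off, r was 0.87. It was not recalculated without replicate 2 of control set 2, the library lowest in both genes. In treated B6 mice the orders differed, since replicate 1 had 53.5 CPM of Mt1 but the lowest Mt2 (10.9 CPM). Replicate 2 had the lowest Mt1 (43.0 CPM) and 14.96 CPM of Mt2. Of 12369 other genes, each was the most like the other. Over the same libraries Mtf1 had an r of -0.49 with Mt1 and -0.62 with Mt2. With the mean of each group taken off, r was 0.27 and 0.42. These points share genotype, treatment and library preparation in groups of 3.

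The 5 genes whose pattern was most like that of Mt1, after Mt2, were 1810007I06Rik (r = 0.89), Gpr137b-ps (r = 0.81), Gpr137b (r = 0.80), Il34 (r = 0.79) and Ttc17 (r = 0.77). Gpr137b, a membrane protein of lysosomes, and Gpr137b-ps are near-identical copies, so their counts are uncertain. Like Mt1, they were lowest in replicate 2 of control set 2. For Mt2 they were Cnot8 (r = 0.86), Il34 (r = 0.85), Tenm3 (r = 0.84), Orc1 (r = 0.84) and Gria3 (r = 0.82). Cnot8, a subunit of the deadenylase that shortens mRNA tails, had 56.7 ± 1.08 and 55.7 ± 1.92 CPM in untreated and treated mutants and 45.8 to 46.0 CPM as the means of the B6 groups. Il34, a cytokine that signals through the receptor of colony stimulating factor, was the gene on both lists, with 15.3 ± 1.34 and 15.1 ± 1.27 CPM in mutants and means of 11.3 to 12.4 CPM in B6 groups. For Mtf1 they were Gpa33 (r = 0.92), Sult1a1 (r = 0.92), Itm2b (r = 0.92), Ctss (r = 0.91) and Trp53i11 (r = 0.90). Gpa33 is a surface antigen of intestinal epithelium, Sult1a1 a phenol sulfotransferase and Ctss a lysosomal protease of antigen-presenting cells. Sult1a1 went from 236 ± 19.4 CPM in control set 1 to 101 ± 40.8 CPM in treated mutants (SD, n = 3), a wider range than that of Mtf1. All values are Pearson's r over 15 libraries and describe likeness only.

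**Figure D4:**
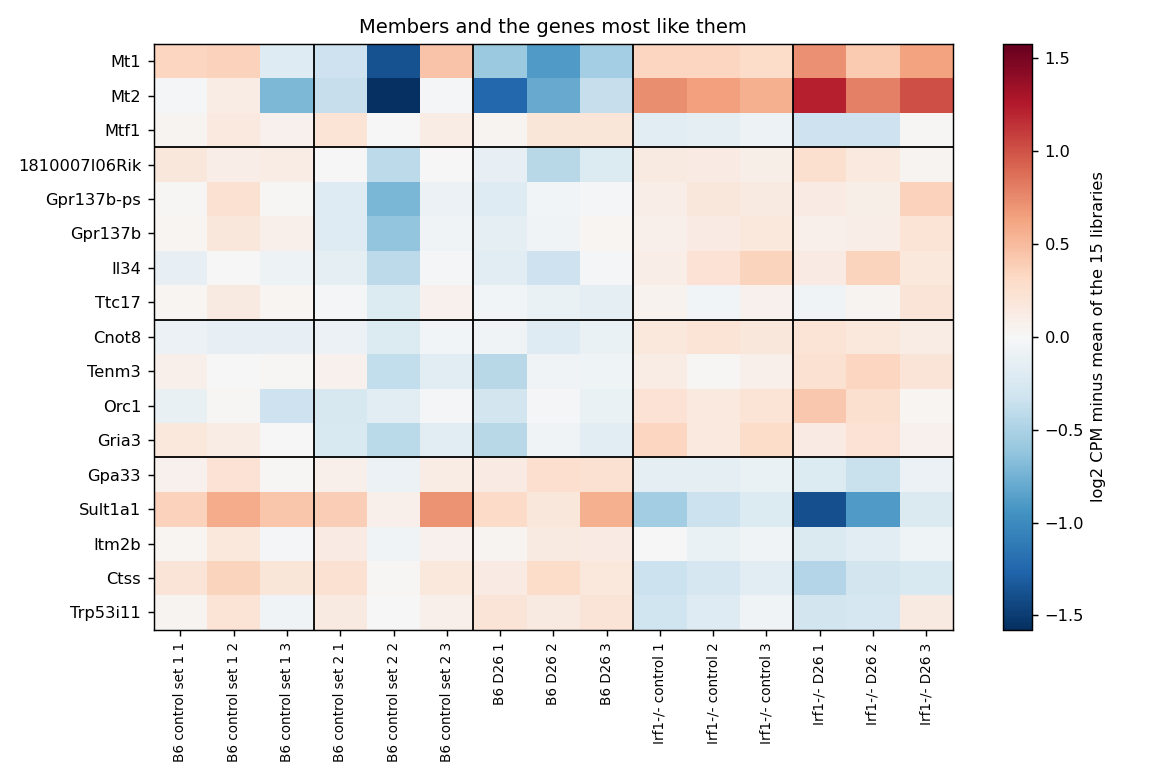
Log2 CPM minus the mean of the 15 libraries (colour) for the members (top) and the 5 genes most like Mt1, Mt2 and Mtf1 (blocks below, Il34 shown once), with libraries in columns grouped by vertical lines. Replicate 2 of control set 2 is the lowest library for Mt1 and Mt2, and the genes most like Mtf1 are lower in most mutant libraries.

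Other genes of zinc and metal handling and of the pathways that induce metallothioneins were taken from 8 lists with 80 genes, 68 of which were counted in at least 1 table. Calls were made with edgeR's quasi-likelihood test and needed both a 1.5-fold change and an adjusted p (Benjamini-Hochberg) below 0.01. Among untreated mutants against control set 2, 0 of 66 pathway genes were called, against 0.405% of all genes. In the B6 response 0 of 68 were called, against 0.0475% of all genes. In the Irf1-/- response 1 of 66 was called, Socs3, against 0.252% of all genes. Counts were 0 of 66 between treated genotypes (0.385% of all genes), 0 of 66 between the control sets (0.0644%) and 0 of 66 for the difference of the responses (0.016%). So few genes were called at all that shares of 66 genes near 0 cannot be told from the background. With DESeq2's Wald test and the same thresholds, 1 of 66 was called at steady state (0.85% of all genes), 3 of 68 in the B6 response (3.49%), 2 of 66 in the Irf1-/- response (1.74%), 0 between treated genotypes (2.16%), 3 of 66 between the control sets (1.16%) and 0 for the difference of the responses (0.601%).

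An unadjusted edgeR p under 0.05 was frequent among all genes, so pathway counts at that level are read beside its share. At steady state 12 of 66 pathway genes had one (18.2%), against 10.4% of all genes. In the B6 response these were 21 of 68 (30.9%), against 29.5% of all genes, and in the Irf1-/- response 22 of 66 (33.3%), against 18.6%. Between treated genotypes they were 18 (27.3%), against 22% of all genes, and for the difference of the responses 16 (24.2%), against 16.9%. Between the control sets, where neither genotype nor treatment differs, they were 20 (30.3%), against 17.2% of all genes.

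No target of Mtf1 other than the metallothioneins was called by edgeR among the measured genes of these lists. Mt1 and Mt2 were not put through this test, so the calls do not set them apart from those other targets. Slc30a1, which exports zinc from the cytosol and is the best known of them, had 51.5 ± 1.67 CPM in control set 1, 56.6 ± 15.2 in control set 2, 48.7 ± 10.7 in treated B6 mice, 52.2 ± 3.83 in untreated mutants and 50.2 ± 5.42 in treated mutants (SD, n = 3). Its log2 FC was -0.07 in the B6 response (standard error 0.14, edgeR adjusted p = 0.763), -0.05 in the Irf1-/- response (standard error 0.09, edgeR adjusted p = 0.818) and 0.02 between treated genotypes (standard error 0.16, edgeR adjusted p = 0.945). These values turned sign without single libraries. With the GC correction and with log2 Xist as a covariate they were 0.03 and 0.12 in the B6 response and -0.065 and -0.02 between treated genotypes. Slc39a10, a zinc importer that Mtf1 represses, had a log2 FC of -0.23 in the B6 response (edgeR adjusted p = 0.329), 0.17 in the Irf1-/- response (0.544) and 0.31 between treated genotypes (0.285), each with a standard error of 0.13 to 0.16. With the GC correction the first was -0.09 and the third 0.18, and with log2 Xist as a covariate the second was 0.0078. Gclc, the catalytic subunit of glutathione synthesis, had a log2 FC of -0.26 (standard error 0.09, edgeR adjusted p = 0.115), 0.11 (standard error 0.06, adjusted p = 0.364) and 0.25 (standard error 0.07, adjusted p = 0.107) in the same comparisons. Its lower level at D26 in B6 mice depended on the controls, since the log2 FC was -0.01 (edgeR adjusted p = 0.931) with control set 2 and -0.14 (0.309) with both sets as controls. Among untreated mice, mutants over control set 2, the log2 FC was -0.12 for Slc30a1, -0.12 for Slc39a10 (-0.0129 with log2 Xist) and 0.13 for Gclc. Of the 4 measured genes in the list of other reported Mtf1 targets, Sepw1, a selenoprotein, had the smallest p in the Irf1-/- response, at a log2 FC of -0.17 (edgeR adjusted p = 0.183).

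Zinc transporters gave no called gene by edgeR in any comparison, with 5 and 3 of 12 importers and 0 and 1 of 7 exporters at an unadjusted p under 0.05 in the B6 and Irf1-/- responses, where 29.5% and 18.6% of all genes were. Between the control sets 5 of 12 importers also had such a p. Of 12 measured importers, 9 had a positive log2 FC in the B6 response (median 0.13) and 8 in the Irf1-/- response (median 0.10), where the median of all genes was 0.01 in both. The smallest p belonged to Slc39a7, which releases zinc from the secretory pathway, in B6 mice (log2 FC 0.29, standard error 0.07, edgeR adjusted p = 0.0422). With control set 2 as controls its log2 FC was 0.12, and with the GC correction 0.14. In mutants it belonged to Slc39a6, an importer at the plasma membrane (log2 FC 0.58, standard error 0.12, edgeR adjusted p = 0.0405), which had 19.6 ± 1.07 CPM at D26 and 13.1 ± 1.64 before (SD, n = 3). Of 7 measured exporters, 1 had a positive log2 FC in each response. Slc30a10, which despite its name exports manganese, had the smallest p in both, at log2 FC -0.78 (standard error 0.41, edgeR adjusted p = 0.237) and -1.33 (standard error 0.58, edgeR adjusted p = 0.266). Its lowest library had 0.97 CPM and its highest 10.9 CPM among treated mutants alone. With log2 Xist as a covariate its log2 FC was -0.21 in B6 mice and -0.49 in mutants. Leaving out 1 library each, it ran from -1.59 (without treated B6 replicate 3) to -0.48 (without treated B6 replicate 1) in B6 mice and was -0.81 in mutants without treated replicate 1. In untreated mutants over control set 2, Slc30a10 had a log2 FC of -0.90 (standard error 0.17, edgeR adjusted p = 0.0363). Its levels there were 19.0 ± 4.94 and 35.4 ± 3.69 CPM (SD, n = 3), and alternatives are not given for this comparison.

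Copper handling, glutathione and Nrf2 response genes also held no gene called by edgeR, with 3 and 3 of 9 copper genes and 4 and 5 of 14 of the others at an unadjusted p under 0.05 in the B6 and Irf1-/- responses (29.5% and 18.6% of all genes). Of 9 copper genes, 4 had a positive log2 FC in the B6 response and 3 in the Irf1-/- response. Atp7b, a copper-exporting pump, had 6.58 ± 0.88 CPM in control set 1 and 3.17 ± 0.39 CPM in treated B6 mice (SD, n = 3), a log2 FC of -1.04 (standard error 0.18, edgeR adjusted p = 0.02). It passed the threshold with both control sets as controls (edgeR adjusted p = 0.00357) and with DESeq2 (adjusted p = 0.000605), while the adjusted p ran up to 0.0874 over the other alternatives. In mutants Cox17, the copper chaperone of cytochrome oxidase, had the smallest p, with a log2 FC of -0.24 (edgeR adjusted p = 0.211). Of 14 glutathione and Nrf2 genes, 7 and 9 had a positive log2 FC. Gpx1, which reduces hydrogen peroxide, had the smallest p in B6 mice (log2 FC 0.35, standard error 0.08, edgeR adjusted p = 0.0387), and its log2 FC was 0.20 with the GC correction. Hmox1, the heme-degrading enzyme induced by oxidants, had it in mutants (log2 FC 0.74, standard error 0.19, edgeR adjusted p = 0.0803).

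Genes of the glucocorticoid and interleukin-6 pathways were compared next. The lists hold genes that these signals switch on, but also the receptor genes Nr3c1, Il6ra, Il6st and Osmr. They hold the steroid-converting enzymes Hsd11b1 and Hsd11b2 as well, so counts over the lists do not measure the signals themselves. Socs3, the feedback inhibitor that Stat3 induces, rose in mutants, from 7.81 to 9.43 CPM in the untreated mice to 18.1 to 23.8 CPM at D26, a log2 FC of 1.29 (standard error 0.14, edgeR adjusted p = 0.00665). In B6 mice Socs3 had 8.96 ± 1.29 CPM in control set 1 and 19.3 ± 6.48 CPM at D26, a log2 FC of 1.11 (standard error 0.23, edgeR adjusted p = 0.028) that missed the threshold. It passed with DESeq2 (adjusted p = 0.000121), in 1 fit of all 15 libraries (edgeR adjusted p = 0.00346), with both control sets as controls (0.00469) and without treated B6 replicate 1 (0.00901), and the adjusted p ran up to 0.113 over the other alternatives and left-out libraries. The call in mutants was lost without 5 of the 6 libraries singly (edgeR adjusted p from 0.00759 to 0.0511 over all 6) and with log2 Xist as a covariate (edgeR adjusted p = 0.0141). Between treated genotypes Socs3 had a log2 FC of 0.11 (standard error 0.22, edgeR adjusted p = 0.81), and 0.24 with the GC correction and 0.18 with log2 Xist. Pim1, a kinase gene and Stat3 target, had a log2 FC of 0.76 in the B6 response (standard error 0.16, edgeR adjusted p = 0.028). It passed with DESeq2 (adjusted p = 0.000562), in 1 fit of all 15 libraries (edgeR adjusted p = 0.00635), with control set 2 (0.00848) and with both sets (0.00414), and the adjusted p ran up to 0.12 otherwise. Of the interleukin-6 and Stat3 genes, 8 of 9 had a positive log2 FC in the B6 response (median 0.20) and 7 of 8 in the Irf1-/- response (median 0.34). Of the glucocorticoid response genes these were 8 of 13 (median 0.16) and 4 of 12 (median -0.07). The untreated B6 sets differed more in this list than treated B6 mice did from control set 1, which is part of both comparisons. Control set 2 over control set 1 had 10 of 13 positive (median 0.35). An unadjusted p under 0.05 was found for 7 of 13 between the control sets (17.2% of all genes). It was found for 5 of 13 in the B6 response (29.5% of all genes). The smallest p in this list was that of Cebpd, a transcription factor, in B6 mice (log2 FC 0.48, standard error 0.11, edgeR adjusted p = 0.0396). Cebpd had 39.6 ± 4.59 CPM in control set 1 and 55.0 ± 6.10 CPM in treated B6 mice, but also 55.02 ± 4.75 CPM in control set 2 (SD, n = 3). With control set 2 as controls its log2 FC was 0.015 (edgeR adjusted p = 0.938). In mutants it was that of Zbtb16, a zinc finger transcription factor (log2 FC -0.87, standard error 0.35, edgeR adjusted p = 0.231), whose log2 FC was -0.57 with log2 Xist as a covariate and -0.47 without untreated replicate 3. The secreted zinc-binding proteins S100a8 and S100a9 of neutrophils, and the acute phase genes Lcn2, Hp, Reg3b and Reg3g, were not analysed here. They were on the lists, but these symbols were not found in any deposited table.

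**Figure D5:**
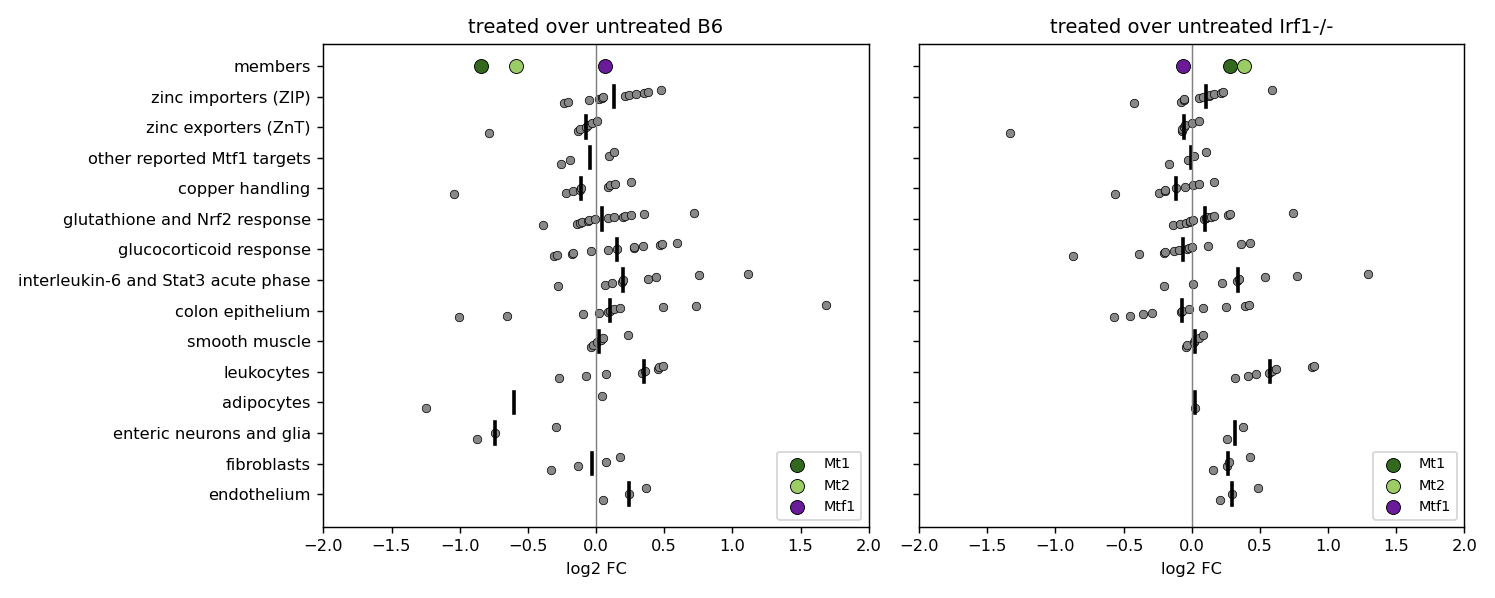
Log2 FC (horizontal axis) of each measured gene of the lists (grey points, black line at the median) in the B6 response (left) and the Irf1-/- response (right), with Mt1, Mt2 and Mtf1 in the top row and cell type markers in the lower 7 rows. Mt1 (-0.85 and 0.28) and Mt2 (-0.58 and 0.39) change side between the panels, while the medians of the zinc transporter lists keep theirs.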

How the data were processed

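The deposited values are raw counts of reads on each gene, in 3 tables, from rRNA-depleted stranded libraries read as 50 bp pairs. Processing notes of the submitters name TopHat2 2.0.9, Bowtie 1.0.0, featureCounts, edgeR and build mm9. The strand setting of the counting is not given in the sources used here, and Gm45774, on the strand opposite to Mt2, overlaps it in GENCODE. The authors kept genes that reached 5 CPM in 3 or more libraries, and 36 columns of their CPM were not used. Libraries held in 2 tables had identical counts and were used once.

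Counts were scaled with TMM and fitted per comparison with edgeR 4.0.16 (R 4.3.3), over all genes of the tables compared. CPM by library used all 15 libraries. Members, gene lists and markers were chosen with earlier results of these data known. Named pathway genes were Slc30a1, Slc39a10, Gclc, called genes, and the smallest p of each list in each response. Genes most like a member were the 5 highest Pearson's r of log2 CPM (prior count 2) over 12370 genes. Alternatives were RLE size factors, library totals, DESeq2 1.42.0, a 10 CPM filter, 1 fit of all 15 libraries, a replicate block, each library left out, an adjusted p under 0.05 and other control sets. A GC correction (lowess, span 0.3) and a log2 Xist covariate were chosen after seeing the data. Scripts were checked on simulated data. Nothing says how mice were housed or prepared in batches. A cage or batch shared by a group could not be told apart from its genotype or treatment. Low Xist counts, a sign of sex, were found only in treated mice. The p-values set a group difference against the spread between mice within groups. RefSeq windows and GENCODE transcripts are GRCm38, unlike the counts. Python 3.11.15 was used.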

Additional observations from a re-analysis of the deposited data

Results flagged for a closer look

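Mt1 moved in opposite directions in the responses of both genotypes. Every treated B6 mouse was below every mouse of control set 1, and every treated Irf1-/- mutant was above every untreated mutant. Of all genes, 34.6% were without overlap in the B6 response and 24.8% in the Irf1-/- response, in either direction. The same joint pattern as that of Mt1 was found for 0.582% of all genes. The difference of the log2 FC, Irf1-/- minus B6, was 1.13 (standard error 0.20), and it was not tested because Mt1 was chosen with its values known. With control set 2 in place of set 1 the difference was 0.71, and treated B6 mice then overlapped their controls.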

How the results depend on the processing

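Of 288 recalculated log2 FC of Mt1, Mt2 and Mtf1, 284 moved by less than the SD of log2 CPM between mice within groups. This yardstick is wide, so the count is no measure of stability. The log2 FC of Mt1 at steady state went from 0.55 to 0.13 with control set 1 and was among the 284. Only 1 value turned sign (Mtf1 between the control sets, without a library). With control set 2 as controls, Mt1 in the B6 response was -0.42, and the difference of the responses was 0.71 for Mt1 and 0.62 for Mt2. Leaving out 1 library each, the difference for Mtf1 ran from -0.25 to -0.0695. Same-numbered libraries of the groups compared deviated together with r of -0.22 to 0.25. Such values cannot settle whether the replicate numbers pair mice, because each group had few libraries. The sample labels do not say what the numbers stand for. With a replicate block the log2 FC of Mt1 was 0.71 at steady state, -0.83 in the B6 response, 0.27 in the Irf1-/- response and 1.25 between treated genotypes, and 0 of the 6 counts of called pathway genes changed.

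Counts of called pathway genes were small, and their causes were not tested. DESeq2 called 1 at steady state (0.85% of all genes), 3 in the B6 response (3.49%), 2 in the Irf1-/- response (1.74%) and 3 between the control sets (1.16%). An adjusted p under 0.05 gave 2, 4, 3 and 1 in the same comparisons. Of all genes it called 93 of 12588, 430 of 12643, 169 of 12692 and 51 of 12417. All 15 libraries in 1 fit gave 2 in the B6 response (297 of 12370 genes) and 1 between the control sets (6 of 12370). In the B6 response control set 2 gave 1 (71 of 12417 genes) and both sets 3 (242 of 12417). In the Irf1-/- response the GC correction gave 2 (32 of 12586 genes) and the Xist covariate 0 (15 of 12692). Leaving out 1 library gave 0 to 1 at steady state, with 1 (34 of 12588 genes) without untreated Irf1-/- replicate 3. It gave 0 to 2 in the B6 response, with 2 (152 of 12643 genes) without treated B6 replicate 1. In the Irf1-/- response it gave 0 to 1, with 0 without untreated replicates 1, 2 and 3 and treated replicate 2. Of all 12692 genes, 1, 0, 0 and 5 were called without those libraries.

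Over 444 recalculated values of named pathway genes, a call was gained in 14 and lost in 6. Near 0, signs turned for Slc30a1 at steady state (0.0167 with control set 1, and -0.28 to 0.11 leaving out 1 library), in the B6 response (0.0277 with the GC correction, 0.12 with Xist, -0.26 to 0.0636), in the Irf1-/- response (-0.14 to 0.0059) and between treated genotypes (-0.065 and -0.0237 with the GC correction and Xist, and -0.098 to 0.22). They also turned for Slc39a10 (-0.30 to 0.11) and Gclc (-0.11 with control set 1) at steady state, and for Socs3 between treated genotypes (-0.088 to 0.40). The lowest count of a member in any library was 195 reads (Mt2), and the spread between mice was not split into counting error and biology.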
